A study of Mus musculus with 14 samples.

Results

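The TGF-beta and BMP signalling genes described here are 50 genes: 13 ligands, 4 latent TGF-beta binding proteins, 12 receptors, 8 Smads, 5 secreted or membrane antagonists, 4 intracellular brakes and 4 targets. Their members were taken as every non-control probe that the array design names for one of these genes, which gave 69 of 55681 probes, and 16 of the genes had several probes. Of the 50 genes, 48 were tested, among 32863 genes in all, because a group had 2 or more arrays on which the probe stood well clear of background. The RNA came from satellite cells, the stem cells that lie along muscle fibres, which had been sorted from mouse muscle on integrin alpha 7 and CD34 while cells with CD31, CD45, CD11b or Sca1 were left out. Each of 14 single-colour arrays carried the amplified, Cy3-labelled cDNA of 1 sample, and the labels call the samples biological replicates. The C57BL/6 mice were 2 to 3 months of age in the Young group (3 arrays), 22 to 24 months in the Old group (3 arrays), and 29 and 30 months in the Geriatric group (2 arrays). SAMP8, a strain prone to early senescence, and SAMR1, its senescence-resistant control strain, gave 3 arrays each, all from mice of 12 months. No sample carried a transgene or a treatment according to the labels, and every mouse was labelled male. Levels are log2 of the probe signal relative to the 75th percentile of its array, so a level of 0 is the signal of that percentile, and levels of different probes are not set against each other.

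Ligands of the TGF-beta family are secreted dimers, many of them held in the matrix in latent form, and they bind a pair of type II and a pair of type I receptor kinases. TGF-beta, activins and myostatin pass their signal through Smad2 and Smad3, bone morphogenetic proteins (BMPs) through Smad1, Smad5 and Smad9, and both branches share Smad4. Secreted antagonists trap the ligands, Smad6 and Smad7 block the receptors, and the Id genes are among the best known BMP targets. In muscle, TGF-beta and myostatin restrain satellite cell division and differentiation, whereas BMP signals favour the division of activated satellite cells.

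Sex-linked transcripts went against the labels for part of the arrays. All Geriatric, SAMP8 and SAMR1 arrays detected the Y-linked genes Ddx3y, Uty and Kdm5d, whereas 0 of the Young and Old arrays did. Xist, the RNA of the inactive X chromosome, averaged 5.69 in Young and 5.26 in Old samples, was below detection on both Geriatric arrays, and averaged −4.14 on the SAMP8 arrays, where 3 of 3 detected it, and −6.76 on the SAMR1 arrays, where 1 of 3 did. The comparisons of Geriatric with Young and with Old samples therefore cross a difference in sex-linked transcripts, and age and this difference cannot be told apart in them. Both Geriatric arrays also lay on slide 2, of the 2 slides that hold all arrays, and each called value is given from a fit with slide as a block and from slide 2 alone, where Young has 1 array and Old has 2.

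Between 77.2% and 88.7% of spots on an array were well above background and none was saturated. Geriatric 1 had 969 outlier spots, against 94 to 255 on each other array. The mean level of 11 satellite cell markers was 2.57 to 3.1 on Young, 2.40 to 2.80 on Old, 2.94 to 3.02 on Geriatric, 2.60 to 2.98 on SAMP8 and 2.76 to 2.78 on SAMR1 arrays. Pax7, which specifies the lineage, read between 3.39 and 4.58 on the 14 arrays, and Itga7 and Cd34, on which the cells were sorted, between 0.14 and 1.46 and between 2.46 and 3.6. Genes that mark other cells read both low and high. Of the leukocyte markers, Ptprc, which encodes CD45, read −2.34 to −1.49, whereas Itgam, which encodes the CD11b that the sort left out, read 7.42 to 8.70 and Csf1r 2.48 to 3.16 over the 14 arrays. On the Geriatric arrays Itgam (7.42 and 7.48) lay below its level on every Young and Old array (7.89 to 8.59). Of 8 tested mesenchymal markers, Dcn read 3.17 to 6.07 and Col3a1 4.18 to 5.39. The others read lower: Ly6a −4.76 to 1.06, Lum −3.79 to −0.99, Dpt −3.11 to −1.28, Mfap5 −1.94 to 1.45, Pi16 −1.84 to 0.38 and Col1a1 −1.95 to 1.12. Pdgfra was too dim to be tested. The part of such cells in the members' levels was not tested. Of 8 smooth muscle and pericyte markers, Pdgfrb read −5.01 to −3.90 on Young arrays and −2.03 to −0.65 on all others. Abcc9 went the other way, at −1.21 to −0.83 on Young and −4.65 to −3.16 on Old and Geriatric arrays. The mean level of the 8 was −1.13 to −0.82 on Young, −1.06 to −0.61 on Old and −1.64 to −0.72 on Geriatric arrays. It was −0.17 to 0.46 on SAMP8 and 0.35 to 0.63 on SAMR1 arrays.

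Of 12 receptors, 3 were called higher in Geriatric than in Old samples (25.0%), where 20.0% of all genes were called in either direction. Against Young samples 2 of the 12 were called higher (16.7%), where 4.19% of all genes were called. With only the 2 groups compared in the fit, 0 members were called in either comparison. Tgfbr2, Acvr2a, Bmpr1a, Ltbp1, Inhbb and Id1 were higher and Smad1 was lower in Geriatric than in Old samples, with changes between 1.71-fold and 2.62-fold. Tgfbr2, Acvr2a and Id1 were also higher in Geriatric than in Young samples. Tested with limma at a Benjamini-Hochberg adjusted p under 0.05, 7 of 48 members passed in Geriatric versus Old (14.6%), where 20.0% of all genes did, and 3 of 48 in Geriatric versus Young (6.25%), where 4.19% of all genes did. By direction, 6 members were higher against 5.52% of all genes and 1 was lower against 14.4% of all genes in Geriatric versus Old. In Geriatric versus Young 3 were higher against 1.58% of all genes, and 0 were lower against 2.61%. An unadjusted p under 0.05 was reached by 14 of 48 members (29.2%) in Geriatric versus Old, where 35.8% of all genes reached it, and by 13 (27.1%) in Geriatric versus Young, where 21.9% did.

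Neither Old versus Young nor SAMP8 versus SAMR1 gave a called member. In Old versus Young limma called 0 of 48, where 1.44% of all genes passed, and 4 members (8.3%) had an unadjusted p under 0.05, where 16.9% of all genes did. In SAMP8 versus SAMR1 it called 0 of 48, where 0.453% of all genes passed, and 3 members (6.2%) had an unadjusted p under 0.05, where 8.3% of all genes did. The median change of the members was −0.10 in Old versus Young, where the median of all genes was 0.06, and −0.04 in SAMP8 versus SAMR1, where it was 0.01. In Geriatric versus Young it was 0.06 for the members and −0.18 for all genes, and in Geriatric versus Old 0.20 for the members and −0.22 for all genes. Under quantile normalization the medians of all genes were −0.04 and 0.03 in the 2 Geriatric comparisons, and those of the members 0.12 and 0.27. The changes of all 48 tested members are drawn with their confidence intervals in the plot of fold changes by comparison.

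**Figure D1:**
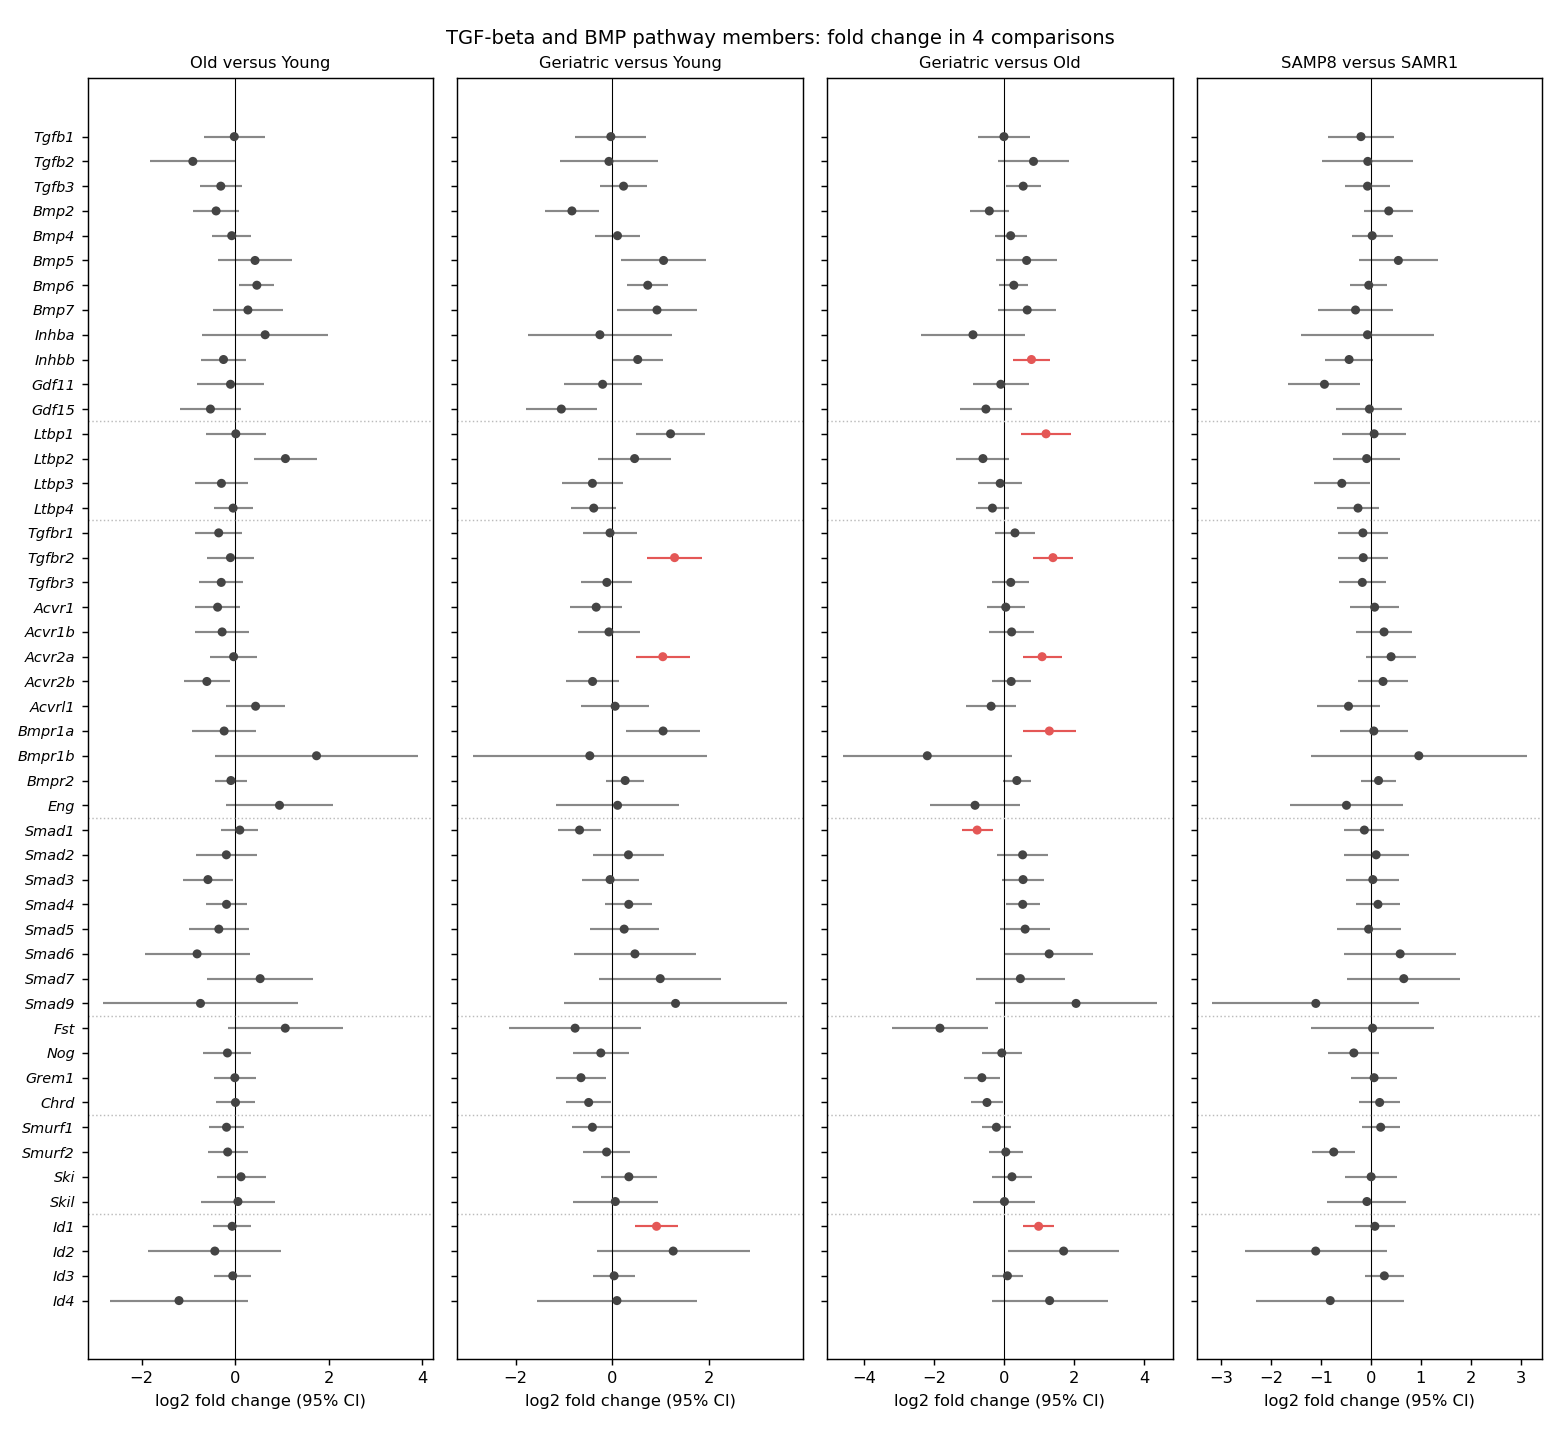
Log2 fold change of each tested member (rows, by role: ligands, latent binding proteins, receptors, Smads, antagonists, intracellular brakes, targets) in the 4 comparisons, with 95% confidence intervals from limma, and red where the adjusted p is under 0.05. Each panel has its own horizontal scale. Red points appear only in the 2 Geriatric panels, 3 against Young and 7 against Old, with Smad1 alone on the lower side.

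Among the receptors, Tgfbr2, the type II receptor that binds TGF-beta itself, had levels of −0.95, −0.36 and −0.87 on the Young arrays. On the Old arrays it read −0.61, −1.23 and −0.64, and on the Geriatric arrays 0.75 and 0.38. Every Geriatric value lay above every Old and Young value. The change was 1.39 ± 0.26 (SE, n = 2 against 3) against Old (adjusted p = 0.00441) and 1.29 ± 0.26 against Young (adjusted p = 0.0178). The fit with the slide gave 1.32 (adjusted p = 0.00558) and 1.15 (0.047), and the arrays of slide 2 alone gave 1.19 (0.0721) and 0.92 (0.458). The call against Young was lost without Young 1 (1.18, adjusted p = 0.0503), Young 3 (1.22, 0.0679), Geriatric 1 (1.11, 0.133) or Geriatric 3 (1.47, 0.0639). On the SAMP8 arrays Tgfbr2 read 0.32, 0.68 and 0.46 and on the SAMR1 arrays 0.68, 0.64 and 0.60, so that the levels of both strains overlapped each other and lay above all Young and Old levels.

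Tgfbr2 was read by a pair of probes on chromosome 9 of mouse build mm9, minus strand. The probe just described lies at chr9:115997155-115997214, and the other, at chr9:115999496-115999555, had smaller changes of 0.48 ± 0.21 against Old (adjusted p = 0.132, every kept probe fitted on its own) and 0.79 ± 0.21 against Young (adjusted p = 0.0642). On this second probe, too, the Young arrays (−1.38, −0.90 and −1.21) and the Old arrays (−0.79, −0.88 and −0.88) lay below both Geriatric arrays (−0.51 and −0.23).

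Acvr2a encodes a type II receptor for activins, myostatin and several BMPs. Its level was −0.76, −0.63 and −0.76 on the Young arrays, −1.03, −0.92 and −0.30 on the Old arrays and 0.23 and 0.44 on the Geriatric arrays, the Geriatric values again above all Young and Old values. The change was 1.08 ± 0.25 against Old (adjusted p = 0.014) and 1.05 ± 0.25 against Young (adjusted p = 0.0431). A block for slide gave 1.05 (adjusted p = 0.0181) against Old and 0.98 (0.0961) against Young, and slide 2 alone gave 1.0 (0.165) and 0.96 (0.583). The call against Old was lost without Geriatric 3 (0.98, adjusted p = 0.112). That against Young rested close to the threshold and was lost in 19 of 25 other settings, among them without Young 1 (adjusted p = 0.0935), Young 2 (0.0647), Young 3 (0.123), Old 2 (0.0543), Geriatric 1 (0.126) or Geriatric 3 (0.242). It was lost as well without SAMR1 1 (0.0511), SAMR1 2 (0.0547), SAMR1 3 (0.0632) or SAMP8 1 (0.059), and its log2 fold change stayed between 0.93 and 1.29 in all 25. The second Acvr2a probe, at chr2:48757324-48757383, moved the same way, by 1.48 ± 0.28 against Old (adjusted p = 0.00573) and 1.53 ± 0.28 against Young (adjusted p = 0.0133), whereas the first lies at chr2:48758429-48758488, both on the plus strand. For this second probe the values with slide as a block were 1.36 (adjusted p = 0.00526) and 1.30 (0.0307), and within slide 2 they were 1.40 (0.0872) and 1.21 (0.451). Without Geriatric 1 its change against Young was 1.61 (0.0661), and without Geriatric 3 its changes were 1.40 against Old (0.0578) and 1.45 against Young (0.112).

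Bmpr1a encodes a type I BMP receptor. It read −2.44, −2.24 and −2.82 on the Young arrays, −2.63, −3.35 and −2.22 on the Old arrays and −1.81 and −1.08 on the Geriatric arrays. The Geriatric values lay above all others of the C57BL/6 series, by 1.29 ± 0.35 against Old (adjusted p = 0.0247) and by 1.05 ± 0.35 against Young, where the test was not passed (adjusted p = 0.115). Against Old it was 1.12 with slide as a block (adjusted p = 0.0174) and 0.98 on slide 2 alone (0.175). That call was lost without Old 1 (1.34, adjusted p = 0.0527), Old 2 (0.98, 0.0726) or Geriatric 3 (0.92, 0.215). Its probe lies at chr14:35224339-35224398 (mm9, minus strand).

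The other 9 receptors did not pass in any comparison. Tgfbr1, the type I partner of Tgfbr2, read 0.81, 1.40 and 0.80 on the Young arrays, 0.50, 0.71 and 0.75 on the Old arrays and 1.15 and 0.77 on the Geriatric arrays. Its change was 0.30 ± 0.26 against Old (adjusted p = 0.409) and −0.05 ± 0.26 against Young (adjusted p = 0.931), and its interval against Old runs from −0.25 to 0.86. Acvr2b, the close relative of Acvr2a, differed by 0.20 ± 0.25 in Geriatric versus Old (adjusted p = 0.598). In Old versus Young, Acvr2b lay at 2.0, 2.68 and 2.27 in Old and at 3.15, 2.88 and 2.75 in Young samples, without overlap (−0.61 ± 0.23, adjusted p = 0.204). Bmpr2, the type II BMP receptor, read 1.39 to 1.43 on the Young, 1.19 to 1.41 on the Old and 1.67 and 1.69 on the Geriatric arrays, a difference of 0.36 ± 0.18 against Old and 0.27 ± 0.18 against Young (adjusted p = 0.173 and 0.394). The co-receptor betaglycan (Tgfbr3) and the type I receptors Acvr1 and Acvr1b differed by at most 0.38 in size in the 4 comparisons on their gene-level probes. The second Acvr1b probe read −2.37, −2.14 and −2.45 on the Young arrays, −2.48, −2.43 and −2.35 on the Old arrays and −1.51 and −1.91 on the Geriatric arrays, the Geriatric values above all Young and Old values. It differed by 0.71 ± 0.31 against Old (adjusted p = 0.128, every kept probe fitted on its own) and 0.61 ± 0.31 against Young (0.288), and the second Acvr1 probe differed by 0.58 ± 0.30 against Old (0.195). Bmpr1b was above background on only 9 of 14 arrays and ranged from −6.74 to −1.94.

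**Figure D2:**
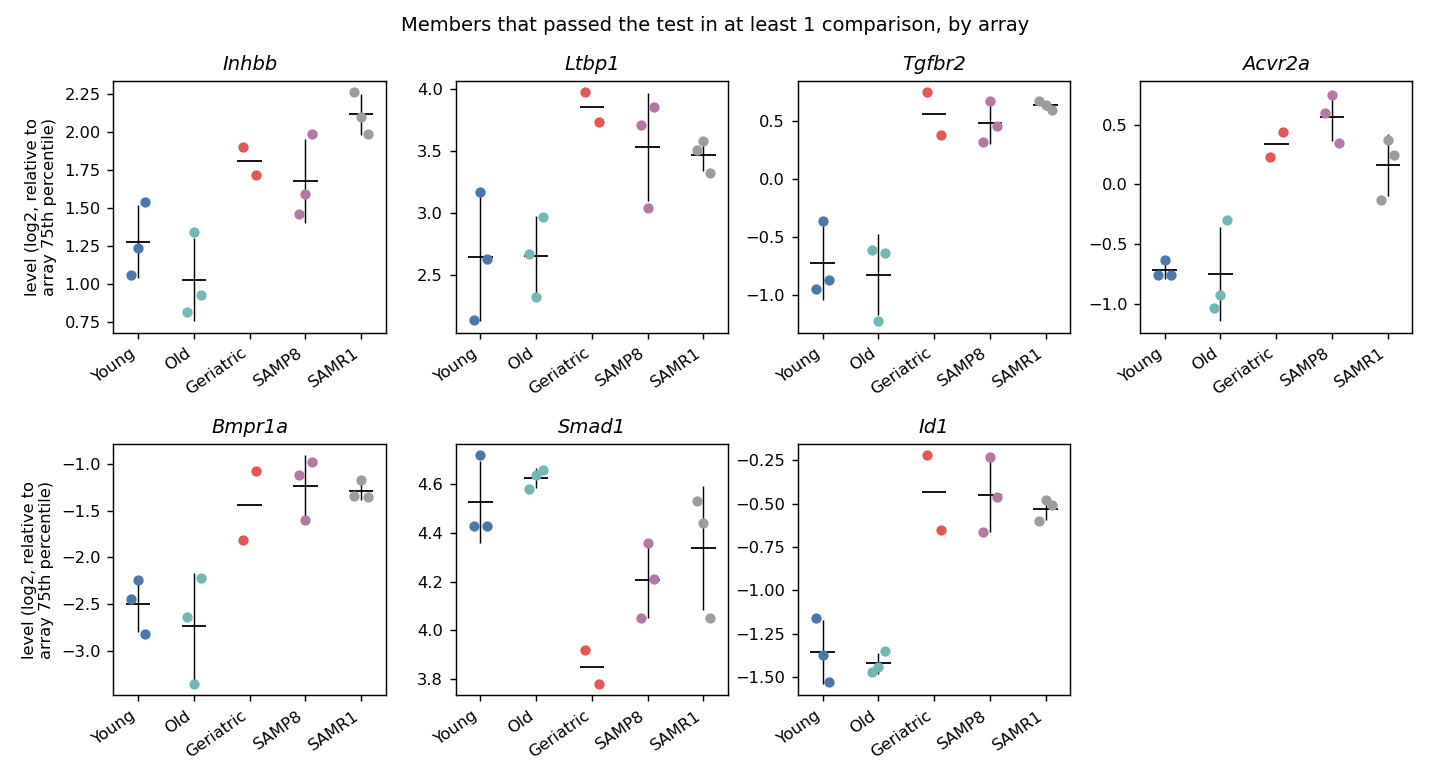
Level of the 7 members that passed the test in at least 1 comparison, on each of the 14 arrays (points), with the group mean (horizontal line) and SD (vertical bar, for groups of 3). The vertical axes are log2 relative to the array's 75th percentile and differ between panels. In the C57BL/6 series both Geriatric points lie outside the range of the Old points in all 7 panels, below it for Smad1 and above it for the others.

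The promoters of the called receptors and of Smad1, the one called gene that fell, are given here to show what they hold of the short Smad recognition letters. They are RefSeq windows of build GRCm38.p6, from 250 bases before to 50 after a transcript's start, and such a window was found for 37 of the 50 members. The letters CAGAC or their reverse GTCTG (a Smad element), GTCTAGAC (its palindromic form, which reads the same on both strands and contains neither of the other 2), and GGCGCC (a BMP element) were searched on both strands. Capitals mark each match. Tgfbr2 lies at chr9:116175314-116175613 (minus strand), Acvr2a at chr2:48813859-48814158 (plus), Bmpr1a at chr14:34502497-34502796 (minus) and Smad1 at chr8:79399379-79399678 (minus).
Tgfbr2: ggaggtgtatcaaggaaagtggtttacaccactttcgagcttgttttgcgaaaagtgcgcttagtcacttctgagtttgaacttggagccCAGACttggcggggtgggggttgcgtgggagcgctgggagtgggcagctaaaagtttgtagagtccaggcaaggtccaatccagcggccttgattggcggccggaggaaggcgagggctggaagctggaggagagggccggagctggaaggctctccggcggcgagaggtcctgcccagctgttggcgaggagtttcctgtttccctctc
Acvr2a: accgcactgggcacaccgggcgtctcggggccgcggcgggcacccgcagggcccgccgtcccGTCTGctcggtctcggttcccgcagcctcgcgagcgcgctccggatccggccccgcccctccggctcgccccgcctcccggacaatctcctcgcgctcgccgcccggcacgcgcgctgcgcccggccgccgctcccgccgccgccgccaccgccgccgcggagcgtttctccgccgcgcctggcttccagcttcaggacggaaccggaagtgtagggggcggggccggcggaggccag
Bmpr1a: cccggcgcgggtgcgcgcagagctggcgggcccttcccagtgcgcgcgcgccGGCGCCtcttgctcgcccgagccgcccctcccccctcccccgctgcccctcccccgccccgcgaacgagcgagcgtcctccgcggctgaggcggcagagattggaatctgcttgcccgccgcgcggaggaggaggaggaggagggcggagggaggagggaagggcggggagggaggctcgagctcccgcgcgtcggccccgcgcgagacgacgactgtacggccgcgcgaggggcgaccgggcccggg
Smad1: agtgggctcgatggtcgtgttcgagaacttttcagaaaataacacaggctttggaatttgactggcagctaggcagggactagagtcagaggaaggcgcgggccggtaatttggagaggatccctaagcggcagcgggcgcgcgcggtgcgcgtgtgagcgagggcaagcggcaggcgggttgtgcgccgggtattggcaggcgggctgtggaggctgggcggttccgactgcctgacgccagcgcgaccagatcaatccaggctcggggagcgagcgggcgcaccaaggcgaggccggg
The window of Tgfbr2 holds 1 Smad element, that of Acvr2a 1, that of Bmpr1a 1 BMP element, and that of Smad1 none of the 3. Of the other called members, which were higher, Inhbb has a window with none of the 3 either. The windows of Ltbp1 hold 1 and 2 Smad elements, and for Id1 no window was found. The Smad element was in 49.6% of all 32851 windows and in 23 of the members' 46 windows, the palindromic form in 0.2% and in 1 of 46. The BMP element was in 11.9% of all windows and in 15 of the 46 member windows (32.6%), belonging to 13 of 37 genes. A match is a run of letters and not a measured binding site, and base composition was not matched between the members and all windows.

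Eng and Acvrl1, a co-receptor and a type I receptor for TGF-beta and BMP ligands, are best known from endothelial cells, and neither passed in any comparison. Eng read 1.81, 2.49 and 0.07 on the SAMP8 arrays and 2.13, 1.94 and 1.77 on the SAMR1 arrays. It read −0.95, −0.70 and −0.98 on Young, 0.31, 0.24 and −0.35 on Old and −1.40 and −0.14 on Geriatric arrays. The 3 Old values lay above the 3 Young values, but the difference did not pass (0.95 ± 0.52, adjusted p = 0.39), nor did that of SAMP8 versus SAMR1 (−0.49 ± 0.52, adjusted p = 0.929). Acvrl1 read 0.61, 0.86 and 0.48 on the SAMP8 arrays and 1.52, 0.73 and 1.05 on the SAMR1 arrays, which overlapped. The mean level of 10 endothelial markers was −0.65 to 2.01 on SAMP8 and 1.11 to 2.39 on SAMR1 arrays. It was −2.31 to −1.27 on Young, −1.90 to −0.61 on Old and −2.63 to −0.65 on Geriatric arrays. Not every marker on the list had this order. The SAMP8 mean of Tek (3.64) lay below its Geriatric mean (3.81), and that of Vwf (−1.50) below its Old mean (−0.52). Their SAMR1 means were 4.13 and −0.08. Cdh5, the cadherin of endothelial junctions, was above background on 2 of 3 Young and 2 of 3 Old arrays and on all others. SAMP8 3, the array with the lowest Eng level of its strain, was also lowest in Pecam1 (0.61, against 3.38 and 3.77 on the other 2 SAMP8 arrays). Cells with CD31, the product of Pecam1, were left out by the sort, and the part of endothelial RNA in the levels of Eng was not tested. In bulk RNA, fewer cells of a type and less RNA per cell cannot be told apart.

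**Figure D3:**
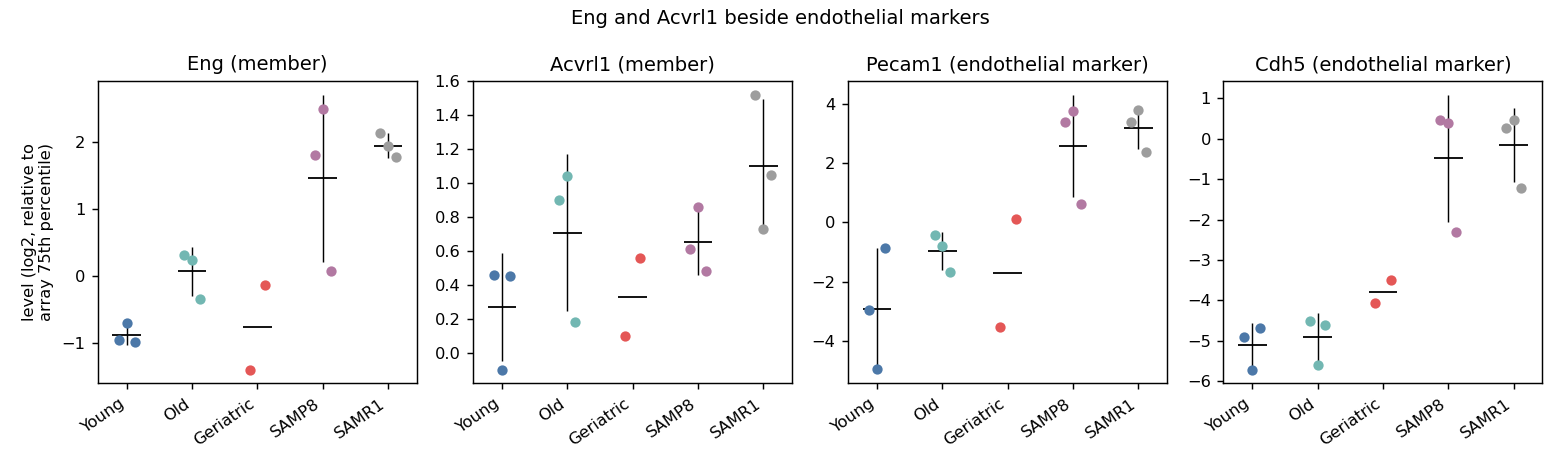
Levels of the members Eng and Acvrl1 beside the endothelial markers Pecam1 and Cdh5 on each array (points), with group mean (horizontal line) and SD (vertical bar, groups of 3); vertical axes are log2 relative to the array's 75th percentile. In all but the Acvrl1 panel the SAMP8 and SAMR1 means lie above the Young, Old and Geriatric means, and SAMP8 3 is the lowest SAMP8 point in all 4 panels.

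Of the latent binding proteins, which tie latent TGF-beta to the matrix, Ltbp1 was higher in Geriatric samples. It read 2.14, 3.17 and 2.63 on the Young arrays, 2.67, 2.33 and 2.97 on the Old arrays and 3.97 and 3.73 on the Geriatric arrays. The Geriatric values lay above all Old and Young values, by 1.19 ± 0.33 against Old (adjusted p = 0.0277) and by 1.21 ± 0.33 against Young, which did not pass (adjusted p = 0.0664). Against Old it was 1.01 with slide as a block (adjusted p = 0.0128) and 1.03 on slide 2 alone (0.0955). That call was lost without Old 1 (1.2, adjusted p = 0.0652), Old 2 (1.03, 0.0872), Geriatric 1 (1.08, 0.131) or Geriatric 3 (1.31, 0.102). Against Young, Ltbp1 passed without Young 2 (1.47, adjusted p = 0.0344) and without SAMP8 2 (1.21, 0.048), as it did in the deposited log2 values (1.34, 0.0247). Its probe lies at chr17:75790530-75790589 (mm9, plus strand).

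Ltbp2, a relative that does not bind latent TGF-beta, read −0.39, −0.98 and −1.08 in Old and −1.69, −2.30 and −1.68 in Young samples, which did not overlap (1.07 ± 0.31, adjusted p = 0.113). Ltbp3 and Ltbp4 were lower in both Geriatric arrays than in every Old and Young array, by 0.12 to 0.41 in size, and neither passed (lowest adjusted p = 0.27). For Ltbp3 the second probe differed by 0.35 ± 0.26 in Geriatric versus Old (adjusted p = 0.372), in the other direction. In SAMP8 versus SAMR1 the change of Ltbp3 was −0.58 ± 0.26 (adjusted p = 0.577). None of the 4 was called in Old versus Young or between the strains.

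Among the ligands, Inhbb, which encodes the subunit of activin B, was higher in Geriatric than in Old samples. It read 1.06, 1.24 and 1.54 on the Young arrays, 0.82, 1.34 and 0.93 on the Old arrays and 1.90 and 1.72 on the Geriatric arrays, so the Geriatric values lay above both other ages. The change was 0.78 ± 0.24 against Old (adjusted p = 0.0434) and 0.53 ± 0.24 against Young (adjusted p = 0.23). With slide as a block the value against Old was 0.81 (adjusted p = 0.0374), and slide 2 alone gave 0.93 (0.141). The call was lost in 14 of 25 other settings, among them without Old 1 (0.67, adjusted p = 0.122), Old 3 (0.73, 0.0791), Geriatric 1 (0.68, 0.183) or Geriatric 3 (0.87, 0.133). Without Young 2 (adjusted p = 0.053), SAMR1 1 (0.0592), SAMR1 2 (0.0588) or SAMR1 3 (0.0578) it was just missed. The probe lies at chr1:121312160-121312219 (mm9, minus strand). Inhba, the subunit of activin A, had a wide spread, at −3.57 and −4.06 on the Geriatric arrays and −1.64, −2.96 and −4.15 on the Old arrays (−0.90 ± 0.68, adjusted p = 0.363).

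The TGF-beta ligands themselves did not pass in any comparison. Tgfb1 read −1.71, −1.88 and −1.66 on the Young arrays, −2.11, −1.39 and −1.81 on the Old arrays and −1.57 and −2.0 on the Geriatric arrays, a full overlap. Its changes were −0.01 ± 0.33 and −0.03 ± 0.33 against Old and Young (adjusted p = 0.984 and 0.967), with an interval of −0.74 to 0.72 against Old. On the SAMP8 arrays it was −0.99, −0.69 and −1.86 and on the SAMR1 arrays −1.0, −0.76 and −1.19 (−0.20 ± 0.30, adjusted p = 0.967). Tgfb2 lay at 0.36, −1.05 and 0.63 in Old and 0.82, 1.05 and 0.79 in Young samples, without overlap (−0.90 ± 0.42, adjusted p = 0.301), and the lowest value was that of Old 2. On the Geriatric arrays it read 0.17 and 1.46. The second Tgfb2 probe overlapped between Young (0.40, 0.37 and −0.33) and Old arrays (−0.43, −1.07 and 0.06). With every kept probe fitted on its own, that probe differed by −0.63 ± 0.33 in Old versus Young (adjusted p = 0.38). In Geriatric versus Old it differed by 1.06 ± 0.37 (0.0708). Tgfb3 was 0.54 ± 0.23 higher in Geriatric than in Old samples on average (adjusted p = 0.112).

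None of the BMP ligands passed at the level of genes. Bmp6 lay lowest in Young samples (2.68, 2.88 and 2.82), then in Old (3.34, 3.19 and 3.24) and highest in Geriatric samples (3.51 and 3.55), with no overlap between neighbouring ages. Its differences were 0.46 ± 0.17 for Old versus Young (adjusted p = 0.2), 0.73 ± 0.19 for Geriatric versus Young (0.0561) and 0.27 ± 0.19 for Geriatric versus Old (0.325). In the deposited log2 values the Geriatric versus Young change of Bmp6 was 0.80 and passed (adjusted p = 0.0311). Bmp2 ran the other way, at −1.55, −1.02 and −1.58 in Young, −1.79, −1.83 and −1.76 in Old and −1.98 and −2.46 in Geriatric samples, without overlap between neighbouring ages. Its Geriatric versus Young change of −0.84 ± 0.25 did not pass (adjusted p = 0.0927), and with slide as a block it was −1.05 and passed (0.0389). Bmp5 and Bmp7 differed by 1.06 ± 0.40 and 0.93 ± 0.38 in Geriatric versus Young (adjusted p = 0.159 and 0.187).

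Bmp4 was read by a pair of probes that disagreed. The gene-level probe, at chr14:47003391-47003450 (mm9, minus strand), read 5.34, 5.45 and 5.28 on the Young arrays, 5.35, 5.12 and 5.38 on the Old arrays and 5.15 and 5.78 on the Geriatric arrays, with changes of 0.18 ± 0.21 against Old (adjusted p = 0.554) and 0.11 ± 0.21 against Young (0.791). The other, at chr14:47003198-47003257, read −3.09, −3.01 and −2.70 on the Young arrays, −3.84, −3.95 and −3.36 on the Old arrays and −2.13 and −1.24 on the Geriatric arrays. On this dimmer probe the groups did not overlap, and the change was 2.03 ± 0.28 against Old (adjusted p = 0.00108) and 1.25 ± 0.28 against Young (0.0361), with every kept probe fitted on its own. With slide as a block these were 2.04 (adjusted p = 0.00216) and 1.26 (0.0747), within slide 2 they were 1.91 (0.0725) and 1.33 (0.521), and without Geriatric 3 the change against Young was 0.81 (0.288). For the gene-level probe the Geriatric versus Old change was 0.68 in the deposited log2 values, which passed (adjusted p = 0.0352), and the mean of both probes gave 1.11 (0.00817).

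**Figure D4:**
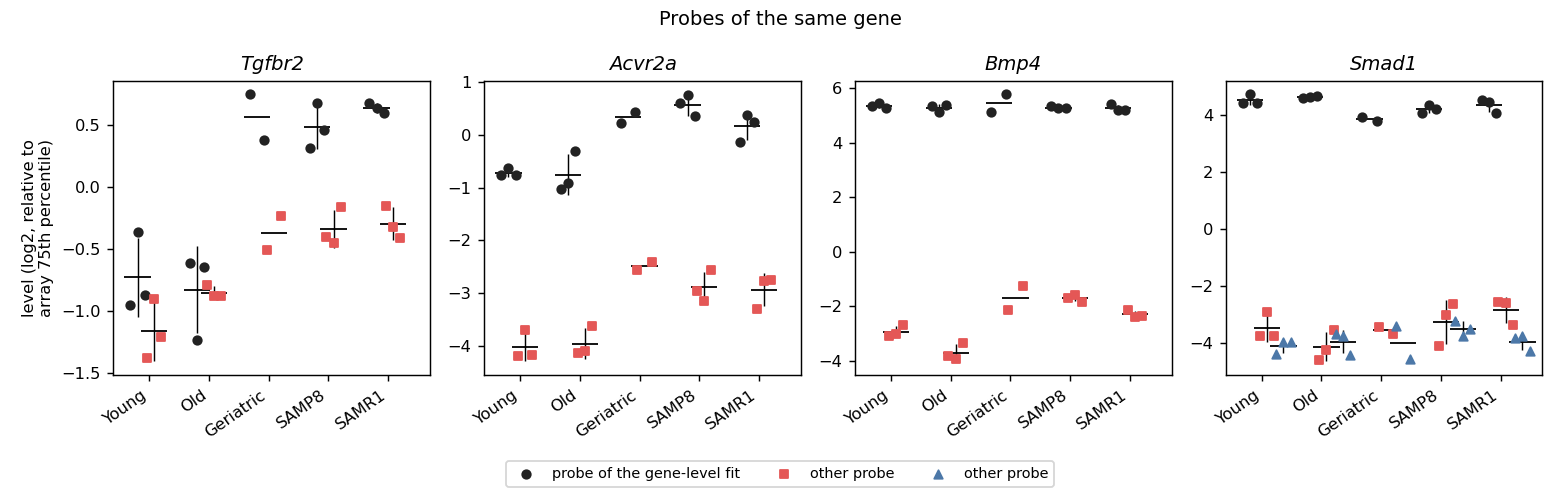
Level of each kept probe of Tgfbr2, Acvr2a, Bmp4 and Smad1 on each array (points), with group mean (horizontal line) and SD (vertical bar, groups of 3); the vertical axes are log2 relative to the array's 75th percentile, and the height of one probe cannot be set against that of another. Both probes of Tgfbr2 and of Acvr2a lie higher on the Geriatric arrays than on the Young and Old arrays, whereas for Bmp4 and Smad1 the probes of a gene do not move alike.

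Mstn, which encodes myostatin, the muscle-made restraint of muscle growth, was not well above background on any of the 14 arrays. Gdf11, its nearest relative, read 0.88, 1.67 and 0.86 on the Young arrays, 1.37, 0.79 and 0.95 on the Old arrays and 0.83 and 1.04 on the Geriatric arrays, which overlapped (−0.10 ± 0.37 against Old, adjusted p = 0.862; −0.20 ± 0.37 against Young, 0.777). Old and Young samples differed in Gdf11 by −0.10 ± 0.33 (adjusted p = 0.926). It was lower on all SAMP8 arrays (0.33, −0.75 and 0.33) than on the SAMR1 arrays (0.61, 1.0 and 1.10), but the change of −0.93 ± 0.33 did not pass (adjusted p = 0.409). Gdf15, a stress-induced distant member of the family, read −2.69 and −2.47 on the Geriatric arrays and −1.50, −1.84 and −1.24 on the Young arrays, without overlap (−1.06 ± 0.34, adjusted p = 0.107). On the Old arrays it read −2.47, −1.51 and −2.18, and the Old versus Young change was −0.53 ± 0.30 (adjusted p = 0.41).

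Smad1, one of the BMP Smads, was the only called member that was lower in Geriatric samples. It read 4.43, 4.72 and 4.43 on the Young arrays, 4.58, 4.64 and 4.66 on the Old arrays and 3.92 and 3.78 on the Geriatric arrays, the Geriatric values below all Young and Old values. The change was −0.78 ± 0.20 against Old (adjusted p = 0.0218) and −0.68 ± 0.20 against Young (adjusted p = 0.0898). With slide as a block the value against Old was −0.79 (adjusted p = 0.0193), and slide 2 alone gave −0.77 (0.138). The call was lost under quantile normalization (−0.52, adjusted p = 0.116), in the deposited log2 values (−0.54, 0.0698), and without Old 2 (−0.77, 0.0556), Geriatric 1 (−0.85, 0.0688) or Geriatric 3 (−0.71, 0.146). The called probe lies at chr8:81880234-81880293 (mm9, minus strand). The other probes of Smad1 are dimmer and differed by 0.58 ± 0.47 (chr8:81863015-81863074, adjusted p = 0.404) and −0.03 ± 0.36 (chr8:81865492-81865551, 0.959). The mean of the 3 probes differed by −0.08 (adjusted p = 0.85).

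The other 7 Smads did not pass. Smad3, which carries TGF-beta and activin signals, read 0.86, 1.74 and 1.40 on the Young arrays, 0.80, 0.66 and 0.80 on the Old arrays and 1.2 and 1.38 on the Geriatric arrays. The Old values were thus below all Young values (−0.58 ± 0.24, adjusted p = 0.249) and below both Geriatric values (Geriatric versus Old 0.54 ± 0.27, adjusted p = 0.175), whereas Geriatric and Young values overlapped (−0.05 ± 0.27, adjusted p = 0.936). Smad2, Smad4, Smad5 and Smad6 were likewise higher on both Geriatric arrays than on every Old array, by 0.52 to 1.28, with adjusted p between 0.116 and 0.277. For Smad4 the second probe differed in the other direction (−0.76 ± 0.24, adjusted p = 0.0521). Smad9 was detected on none of the Young or Old arrays. Its Geriatric mean was at least 1.47-fold above its Old mean, a bound that carries no sampling error, and the test was not passed (adjusted p = 0.185). In SAMP8 versus SAMR1, Smad7, an inhibitory Smad, read −3.33, −3.38 and −3.30 in SAMP8 and −4.42, −3.43 and −4.12 in SAMR1 samples, without overlap (0.66 ± 0.52, adjusted p = 0.856). On the gene-level probes, 6 of the 8 tested Smads were higher without overlap in Geriatric versus Old and 1 was lower. Of all genes, 19.5% were higher and 35.4% lower in this way. The count depends on the probe: Smad4 counts as higher and Smad1 as lower, although another probe of each differed in the other direction.

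None of the antagonists passed in any comparison. Fst encodes follistatin, which traps activins and myostatin. It read −5.56, −5.31 and −5.34 on the Young arrays, −3.78, −4.48 and −4.73 on the Old arrays and −6.51 and −5.83 on the Geriatric arrays. The Old values were the highest and the Geriatric values the lowest, with no overlap between any of the 3 ages, but all lie near the detection limit. The change was −1.84 ± 0.62 in Geriatric versus Old (adjusted p = 0.0587), −0.77 ± 0.62 in Geriatric versus Young (0.487) and 1.07 ± 0.56 in Old versus Young (0.361). The Geriatric versus Old change passed without SAMP8 1 (adjusted p = 0.0192) or SAMP8 2 (0.021) and was −0.27 in the deposited log2 values (0.344). Of the BMP traps, Grem1 differed by −0.64 ± 0.23 (adjusted p = 0.0724) and Chrd by −0.50 ± 0.21 (0.116) in Geriatric versus Old, both without overlap, and Nog by −0.07 ± 0.26 (0.861). Bambi, a receptor without a kinase domain, was above background on only 3 of 14 arrays (Old 1, SAMP8 1 and SAMR1 1) and was not tested.

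None of the intracellular brakes passed in any comparison. Smurf1 and Smurf2, ubiquitin ligases that mark Smads and receptors for breakdown, and the corepressors Ski and Skil differed by at most 0.41 in size in the comparisons of ages on their gene-level probes. Other probes differed more in Geriatric versus Old: the second Skil probe by −0.92 ± 0.41 (adjusted p = 0.138, every kept probe fitted on its own) and another Smurf2 probe by 0.73 ± 0.32 (0.136). In SAMP8 versus SAMR1, Smurf2 read 0.35, 0.83 and 0.20 in SAMP8 and 1.25, 1.09 and 1.28 in SAMR1 samples, without overlap. Its change of −0.75 ± 0.20 did not pass (unadjusted p = 0.0027, adjusted p = 0.202). In the deposited log2 values it was −0.79 and passed (adjusted p = 0.0442). The other probes of Smurf2 differed by −0.40 ± 0.22 (adjusted p = 0.703) and −0.65 ± 0.36 (0.691).

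Of the targets, Id1 was higher in Geriatric samples. The Id proteins bind E proteins and so hold back basic helix-loop-helix factors such as MyoD. Id1 read −1.16, −1.37 and −1.53 on the Young arrays, −1.47, −1.44 and −1.35 on the Old arrays and −0.22 and −0.65 on the Geriatric arrays, the Geriatric values above all Young and Old values. The change was 0.98 ± 0.21 against Old (adjusted p = 0.00835) and 0.92 ± 0.21 against Young (adjusted p = 0.0316). A block for slide gave 1.0 (adjusted p = 0.00792) against Old and 0.96 (0.0453) against Young, and slide 2 alone gave 0.97 (0.117) and 0.93 (0.489). The call against Old was lost without Geriatric 1 (0.77, adjusted p = 0.0771). The call against Young was lost without Young 2 (0.91, adjusted p = 0.0591), Young 3 (0.83, 0.112), Geriatric 1 (0.70, 0.209), Geriatric 3 (1.13, 0.0641) or SAMR1 1 (0.92, 0.0515). The probe lies at chr2:152563083-152563142 (mm9, plus strand). On the SAMP8 arrays Id1 read −0.66, −0.23 and −0.46 and on the SAMR1 arrays −0.60, −0.48 and −0.51 (0.08 ± 0.18, adjusted p = 0.98).

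Id2, Id3 and Id4 did not pass in any comparison. Id2 read −4.71, −3.82 and −4.80 on the Young arrays, −4.92, −5.29 and −4.42 on the Old arrays and −2.57 and −3.79 on the Geriatric arrays, so that Geriatric 3 lay barely above Young 2. Its change was 1.70 ± 0.72 against Old (adjusted p = 0.118) and 1.26 ± 0.72 against Young (0.325), and the change against Old passed in the deposited log2 values (1.04, 0.035), under quantile normalization (2.71, 0.0271) and without SAMP8 2 (0.0375) or SAMP8 3 (0.0468). Id3 read 3.56, 3.81 and 3.87 on the Young arrays, 3.78, 3.62 and 3.69 on the Old arrays and 3.82 and 3.75 on the Geriatric arrays (0.09 ± 0.20 against Old, adjusted p = 0.773; 0.04 ± 0.20 against Young, 0.929). The interval of Id3 against Old runs from −0.35 to 0.53. Id4 was not above background on any Old array, and the bound against Old was at least 1.01-fold (adjusted p = 0.237).

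**Figure D5:**
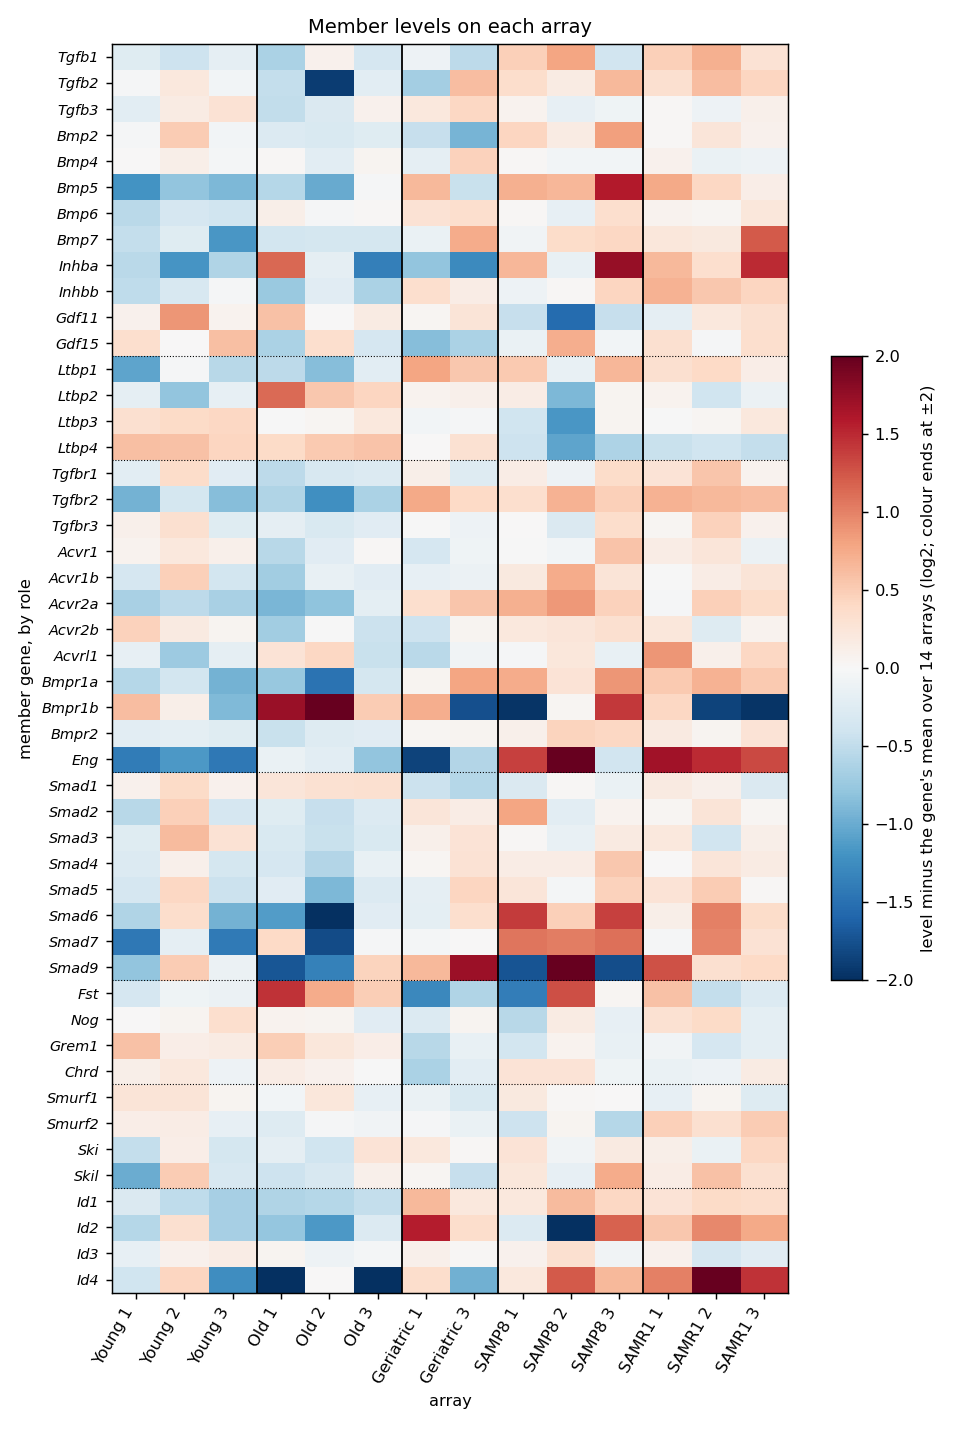
Level of each tested member (rows, by role) on each of the 14 arrays (columns), as log2 difference from the gene's mean over all arrays, with the colour scale ending at 2 on either side. Tgfbr2, Acvr2a, Bmpr1a, Ltbp1 and Id1 lie below their mean (blue) on the Young and Old arrays, with Ltbp1 on Young 2 close to it, and mostly above it (red) on the Geriatric, SAMP8 and SAMR1 arrays.

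The called members were picked by a difference between the same Geriatric and Old arrays, so their levels beside the strains are given as description only. How many of all genes had SAMP8 and SAMR1 means nearer to Geriatric than to Old samples was not counted. The mean of Tgfbr2 was −0.73 ± 0.32 in Young, −0.83 ± 0.35 in Old and 0.57 ± 0.26 in Geriatric samples. It was 0.48 ± 0.18 in SAMP8 and 0.64 ± 0.04 in SAMR1 samples (SD, n = 2 in Geriatric and 3 in the other groups). For Smad1 the SAMR1 mean was not nearer to the Geriatric than to the Old mean. The Geriatric, SAMP8 and SAMR1 arrays are those on which Ddx3y, Uty and Kdm5d were detected, and the part of this difference in the levels was not tested. Muscle fibre markers were lower in Geriatric than in Old samples, where 2 of 8 were called (20.0% of all genes were) and the median change was −1.0, with a mean level of −3.87 to −3.63 on the Geriatric and −2.54 to −2.13 on the Old arrays. Leukocyte markers had a median change of −0.74 with 0 of 9 called, and a mean level of −2.52 to −1.82 on the Geriatric and −1.64 to −0.17 on the Old arrays. The part of these cells in the members' changes was not tested.

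The groups were also compared by whether their arrays overlapped, which 54.9% of all genes did not in Geriatric versus Old, 44.2% in Geriatric versus Young, 21.5% in Old versus Young and 13.1% in SAMP8 versus SAMR1. Of the 48 members, 19 were higher and 8 lower without overlap in Geriatric versus Old, where 19.5% and 35.4% of all genes were. In Geriatric versus Young 14 were higher and 11 lower, where 15.1% and 29.1% of all genes were. Old versus Young gave 4 higher and 7 lower, where 12.9% and 8.56% of all genes were, and SAMP8 versus SAMR1 gave 1 and 2, where 7.75% and 5.36% of all genes were. The comparisons with Geriatric samples share the Geriatric arrays, so that their counts are not independent of each other.

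Beyond the members, 82 further genes of the pathway were looked up, of which 77 were tested. Limma called 9 of 77 in Geriatric versus Old (6 higher and 3 lower), or 11.7%, where 20.0% of all genes were called, and 3 in Geriatric versus Young (2 and 1), or 3.9%, where 4.19% were. In Old versus Young it called 0, where 1.44% of all genes were called, and 17 (22.1%) had an unadjusted p under 0.05, where 16.9% of all genes did. In SAMP8 versus SAMR1 it called 1 (1.3%), where 0.453% of all genes were called. Their median change was 0.05, 0.10, −0.01 and 0.05 in these comparisons, in the order given. Dab2, an adaptor of endocytosis that binds TGF-beta receptors, read −3.69, −3.46 and −4.15 on the Young arrays, −3.33, −2.70 and −2.48 on the Old arrays and 0.15 and 0.21 on the Geriatric arrays. It rose by 3.01 ± 0.32 against Old (adjusted p = 0.000266) and 3.94 ± 0.32 against Young (0.00013). Fitted with the slide they were 2.96 (0.000727) and 3.84 (0.000992), and within slide 2 they were 3.08 (0.0226) and 3.63 (0.121). On the SAMP8 arrays Dab2 read −0.29, −0.64 and −0.71 and on the SAMR1 arrays −0.53, −0.71 and −1.34.

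Hey1, a transcription factor induced by BMP and Notch signals, read 1.37, 2.09 and 1.49 on the Young arrays, 0.75, 0.16 and 0.81 on the Old arrays and 2.19 and 2.29 on the Geriatric arrays. The Old values were the lowest, and Hey1 was 1.67 ± 0.27 higher in Geriatric than in Old samples (adjusted p = 0.0021), 1.54 with slide as a block (0.00139) and 1.46 on slide 2 alone (0.0378). Rgmb, a BMP co-receptor, rose by 1.79 ± 0.47 (adjusted p = 0.0234) and the ligand gene Gdf9 by 1.88 ± 0.45 (0.0156). Fitted with the slide they were 1.53 (0.0132) and 1.73 (0.0208), and within slide 2 they were 1.52 (0.106) and 1.76 (0.063). Rgmb was lost without Old 1 (1.70, 0.0677), Old 2 (1.52, 0.0763), Geriatric 1 (2.04, 0.059) or Geriatric 3 (1.54, 0.163), and Gdf9 without Geriatric 1 (1.92, 0.0662) or Geriatric 3 (1.85, 0.0984).

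Other calls against Old lay closer to the threshold. Tgfbi, a TGF-beta-induced matrix protein, differed by 1.43 ± 0.43 (adjusted p = 0.0397), which was 1.41 with slide as a block (0.0542) and 1.2 on slide 2 alone (0.297). Bmp10, a BMP of the heart, fell by 0.87 ± 0.24 (adjusted p = 0.0268). Acvr1c, a type I receptor for activin-like ligands, was above background on 2 of 3 Old arrays and on 0 arrays of the other groups. It was thus kept for testing only through the Old group, and its call is not independent of that filter. The bound between the group means put it at least 2.84-fold lower in Geriatric samples (adjusted p = 0.0434). The fitted change of Acvr1c was −2.39, and it was −0.46 in the deposited log2 values (0.261) and −1.12 under quantile normalization (0.431), neither of which passed. For Bmp10 the value was −0.82 with slide as a block (0.0306) and −0.81 on slide 2 alone (0.185), and without Old 1 (−0.76, 0.0827), Old 2 (−0.81, 0.0772), Geriatric 1 (−0.81, 0.121) or Geriatric 3 (−0.93, 0.11) it was not called. Acvr1c lost its call without Old 1 (0.0702), Old 3 (0.0803), Geriatric 1 (0.275) or Geriatric 3 (0.0518), or any Young or SAMR1 array or SAMP8 2 (0.0508 to 0.0595). Tgfbi lost it without Old 1 (0.0722), Old 2 (0.121), Geriatric 3 (0.305), any Young array, SAMR1 1 or SAMR1 3 (0.0506 to 0.0547). The BMP ligand gene Gdf7 read 0.32, 0.28 and 0.35 on the Young, 0.92, 0.91 and 1.03 on the Old and 1.26 and 1.10 on the Geriatric arrays. Old values thus already lay above all Young values, and the mean of the kept probes called Old versus Young (1.62, adjusted p = 0.00175). In the main fit Gdf7 was called in Geriatric versus Young only (0.87 ± 0.20, adjusted p = 0.0338). This change was 0.95 with slide as a block (0.0334) and 0.90 on slide 2 alone. That call was lost without any Young or Geriatric array (0.0644 to 0.174).

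The only pathway gene called between the strains was Cdkn2b, which encodes the cell cycle inhibitor p15 and is induced by TGF-beta. It read −1.18, −1.33 and −1.46 on the SAMP8 arrays and −3.38, −3.23 and −2.47 on the SAMR1 arrays, without overlap. The change was 1.70 ± 0.28 (adjusted p = 0.0214), 1.77 with slide as a block (0.0245), 1.60 within slide 1 (0.334) and 1.90 within slide 2 (0.607). The call was lost under quantile normalization (1.61, adjusted p = 0.0597), with the mean of its probes (1.62, 0.248), and without SAMR1 1 (1.52, adjusted p = 0.11), SAMR1 2 (1.60, 0.112), SAMP8 1 (1.63, 0.0836) or SAMP8 2 (1.70, 0.0663). On the C57BL/6 arrays it read −1.45, −1.94 and −1.88 in Young, −2.17, −1.60 and −1.43 in Old and −2.45 and −2.78 in Geriatric samples.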

How the data were processed

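The 14 samples of sorted satellite cells had been hybridised to Agilent single-colour arrays, 1 each. The deposited scanner files hold each spot's background-subtracted processed signal as a linear intensity, made by Agilent Feature Extraction 10.7.3.1 with probe coordinates of mouse build mm9, per the file headers. The authors' deposited table holds log2 values, made by steps not given in the sources used here. They equalled, to within 0.000117, a normexp correction (offset 50) with quantile normalization, and each column's median was 7.8.

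Control and outlier spots were left out, spots of a probe averaged, and log2 signals reduced by each array's 75th percentile. A probe was kept where some group had 2 or more arrays on which it was flagged well above background, and a gene was its kept probe with the highest mean. The test was limma's moderated test (version 3.58.1, R 4.3.3; lmFit, eBayes, 1 coefficient per group over all 14 arrays, two-sided, Benjamini-Hochberg over 32863 genes, adjusted p under 0.05). In the fit 515 values were missing as outliers. The prior had 2.36 degrees of freedom and a variance of 0.133, and the procedure was tested on simulated data. Where no array of a group was above background, a bound was computed. It sets the brighter group's mean against a floor averaged over the dimmer group's arrays, which is the array's dimmest detected signal, or the probe's signal where that is brighter.

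The members, the further pathway genes and the marker lists were chosen with earlier results of these data known. All members were to be named, those called and 12 others (Tgfb1, Tgfbr1, Tgfbr2, Bmpr1a, Smad3, Mstn, Gdf11, Gdf15, Fst, Id1, Id2 and Id3) in full, and of the further genes up to 5 per direction and comparison with the smallest p. Tab1, 1 of the further genes, passed in Geriatric versus Old but ranked sixth and is not described. Some results of the further genes and markers are not reported here. Slides were read from array identifiers in the deposited names, and the scan order of the file headers splits the arrays in the same way. Replicate numbers are not stated to pair samples. Alternatives were normalization, the authors' values, filters, probe summary, slide, replicate block, samples in the fit, and leaving out each array. Fits of the second probes of Bmp4 and Acvr2a with slide or without a Geriatric array were chosen after seeing the data. Promoter sequences are RefSeq's (GRCm38.p6). With 2 or 3 arrays a group, their number limits the precision.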

Additional observations from a re-analysis of the deposited data

How the results depend on the processing

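No member changed direction where it had been called under any alternative. Where every probe was fitted on its own, this was read at the gene-level probe only. Another probe of Smad1, which was called lower against Old, differed by 0.58 in that comparison. The replicate number as a block left 0 members called in Geriatric versus Young (3 as reported), 3 in Geriatric versus Old (7), 0 in Old versus Young and 0 in SAMP8 versus SAMR1; of the further pathway genes it left 0 called in SAMP8 versus SAMR1 (1). The labels do not say that the numbers pair samples, and over 26 pairs of arrays with the same number the deviations correlated between −0.2547 and 0.1930, with 5 pairs over 0.1. All 5 were among the 10 pairs on the same slide, and 0 of the 16 on different slides exceeded 0.1. Of pairs with different numbers, 9 of 28 on the same slide and 2 of 24 on different slides did. Fitting only the 2 groups compared left 0 and 0 members in the comparisons of Geriatric with Young and Old, and 4 further genes against Old (9) and 0 between the strains. Within slide 2, which leaves 2 Geriatric arrays against 1 Young or 2 Old arrays, 0 members and 0 further genes were called against Young, and 0 members and 3 further genes against Old. Within either slide 0 further genes were called between the strains. In SAMP8 versus SAMR1, normexp with quantile normalization and the authors' deposited values each called 1 member, Smurf2, and 2 further genes, slide as a block 2 further genes, and quantile normalization and the mean of the kept probes 0. In Old versus Young, normexp and the deposited values each called 1 further gene, Hey1, as lower (−0.97, adjusted p = 0.044). The mean of probes called 1, Gdf7, as higher (1.62, 0.00175). Every probe on its own called 1, and slide as a block called 2. In Geriatric versus Young, 6 further genes (3) were called with the mean of probes and with every probe, and 15 (9) against Old with every probe. Leaving out 1 array gave 0 to 5 members against Young, with 0 without Geriatric 1, Geriatric 3 or Young 3, and 1 without Young 1 or SAMR1 1. Against Old it gave 2 to 10, with 3 without Geriatric 1, 2 without Geriatric 3, 4 without Old 1 and 10 without SAMP8 2. It gave 0 in the other 2 comparisons. For the further genes these ranges were 0 to 1 in Old versus Young, 1 to 4 and 4 to 12 in Geriatric versus Young and Old, and 0 to 2 between the strains.

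Over all genes the counts of calls moved by more than 1.5 times. Against 6561 as reported in Geriatric versus Old, 3001 were made with only the 2 groups, 1553 within slide 2 and 1989 without Geriatric 3. Against 1377 in Geriatric versus Young, 864 were made with slide as a block, 869 with the replicate block, 422 with only the 2 groups, 2 within slide 2 and 414 without Geriatric 3. Against 472 in Old versus Young, 777 were made with the deposited values, 729 with slide as a block, 237 with the replicate block, 43 with only the 2 groups, 0 within either slide, 85 without Old 1 and 793 without Old 3. Against 149 in SAMP8 versus SAMR1, 229 were made with the deposited values, 47 with only the 2 groups and 0 within either slide, and leaving out 1 array gave 56 to 250. The share of calls that were higher was 27.6% in Geriatric versus Old and 46.9% under quantile normalization of the same signals, 37.7% and 44.9% in Geriatric versus Young, where normexp gave 49.7%, and 83.3% and 67.8% in Old versus Young. Dim genes such as Fst, Id2, Smad7 and Bmpr1b, below background on some arrays, limit what can be told of their changes.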
